A study of Mus musculus with 15 samples.

Results

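Dense clusters were stretches of mouse tumor chromatin in which 30 or more H3K27ac peaks followed each other with gaps of at most 12.5 kb. They were selected on the positions of the peaks in 1 deposited list: the 122375 peaks were sorted along each chromosome, neighbours closer than the largest gap were joined, and the chains with 30 peaks or more were kept. Of 22564 chains, 477 met the rule, and they held 23592 of the peaks (19.3%, Wilson 95% interval 19.1 to 19.5%). The number of peaks, the spacing and the length of a cluster are therefore given as descriptions. The list came from 1 library, so no value had a replicate and intervals cover counting error only. The interval on the share of peaks also treats peaks as separate draws. Peaks of 1 chain enter or leave the clusters together, so it does not measure the spread of that share.

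The series held 15 CUT&RUN libraries from mouse fusion-positive rhabdomyosarcoma, a muscle-like sarcoma driven by the PAX3-FOXO1 fusion. The list used here was called on 1 of 6 H3K27ac libraries of the MCP tumors, against IgG. MCP tumors carried Myf6-Cre, Cdkn2a Flox/Flox, Pax3 P3F/P3F and R26-tdTom: Cre was driven by Myf6, a muscle regulatory gene, both copies of Cdkn2a were floxed, the fusion was knocked in at Pax3, and a tdTomato reporter sat at the Rosa26 locus. Tumors were dissociated and live cells were sorted, and how many animals gave this library was not given in the sources used here. The other tumor type, TCP, with 3 H3K27ac libraries, was not analysed here.

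Acetylation of lysine 27 on histone H3 is laid down by CBP and p300 at active promoters and enhancers. Long runs of such peaks have been called stretch enhancers or super-enhancers, and in many cell types they lie near genes that mark the identity of the cell or its growth signals. The caller splits a broad acetylated domain into several narrow peaks, so a dense cluster can be a row of separate enhancers or a few wide domains cut into pieces.

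The strongest peak of each cluster, the one with the highest fold enrichment over background, gives a view of the sequence under the mark. Below are 121 bases around its summit for 5 clusters that hold a gene described later, from the plus strand of GRCm38 (mm10). In the Cdon cluster another peak had the same rounded fold, 11.2, and in the Cdkn2a cluster another had 9.96. For these clusters the window shown is around 1 of the tied peaks. Capitals mark matches on either strand to 10 short motifs: AP-1 (TGANTCA), ETS (CCGGAA), RUNX (TGTGGT), TEAD (GGAATG), E-boxes (CAGCTG and CACCTG), forkhead (TGTTTAC), the GATA factors (AGATAA), MEF2 (CTA and TAG with 4 bases between them) and the SP1 box (GGGCGG).
Cdon, chr9:35404866-35404986: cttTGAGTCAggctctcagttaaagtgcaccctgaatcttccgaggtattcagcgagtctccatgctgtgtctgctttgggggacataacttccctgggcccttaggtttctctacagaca
Meis1, chr11:18988790-18988910: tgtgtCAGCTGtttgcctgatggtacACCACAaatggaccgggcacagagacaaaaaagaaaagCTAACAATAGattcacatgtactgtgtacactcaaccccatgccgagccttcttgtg
Tead4, chr6:128286043-128286163: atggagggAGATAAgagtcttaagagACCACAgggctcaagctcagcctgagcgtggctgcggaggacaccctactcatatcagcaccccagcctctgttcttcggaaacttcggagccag
Egfr, chr11:16790576-16790696: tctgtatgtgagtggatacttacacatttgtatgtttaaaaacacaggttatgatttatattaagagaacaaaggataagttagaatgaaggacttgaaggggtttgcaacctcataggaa
Cdkn2a and Cdkn2b, chr4:89290264-89290384: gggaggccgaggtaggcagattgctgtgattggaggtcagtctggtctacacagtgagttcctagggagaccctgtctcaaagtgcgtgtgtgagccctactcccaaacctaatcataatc
The Cdon window, 47.1 kb upstream of the start site, had 1 AP-1 match. The Meis1 window, in an intron 30.1 kb downstream of the start, had 3 matches, to RUNX, an E-box and MEF2. The Tead4 window, in an intron 14.7 kb downstream of the start, had 2, to RUNX and GATA. The windows in introns of Egfr and Cdkn2a had none of these letters, although the Egfr peak was the strongest of the 5, with a fold enrichment of 18.1 and 48 fragments over its summit.

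A second set of sequences comes from the miRNA genes in the clusters, since several clusters described below hold a well-known miRNA gene and no protein-coding start. In these RefSeq mature miRNAs the seed, bases 2 to 8, is in capitals.
let-7b-5p: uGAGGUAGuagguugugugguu
let-7c-5p: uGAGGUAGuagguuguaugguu
let-7e-5p: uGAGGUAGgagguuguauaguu
miR-125a-5p: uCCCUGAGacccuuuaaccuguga
miR-125b-5p: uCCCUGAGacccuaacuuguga
miR-29a-3p: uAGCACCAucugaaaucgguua
miR-29b-3p: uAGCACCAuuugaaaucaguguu
miR-21a-5p: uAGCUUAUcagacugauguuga
miR-199a-5p: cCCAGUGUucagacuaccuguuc
miR-214-3p: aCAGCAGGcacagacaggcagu
The 3 let-7 miRNAs shared 1 seed and came from 2 clusters, the miR-125 pair shared another across 2 clusters, and the miR-29 pair came from a single cluster.

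Of the 477, 215 held 30 to 39 peaks, 109 held 40 to 49, 132 held 50 to 99 and 21 held 100 or more. The median cluster had 41 peaks (quartiles 34 and 55, highest 226) over 67.0 kb (range 22.6 to 278 kb). Together the clusters spanned 36.0 Mb, 1.32% of the chromosomes. Peaks covered 22.2% of the median cluster. The gap between neighbouring peaks inside a cluster had a median of only 0.273 kb, and its lower quartile was 0.126 kb. When peaks 200 bp or less apart were counted as 1, a setting chosen after seeing the data, 153 clusters of 30 remained, and at 500 bp 47 remained. The limit of 30 was not a break in the sizes: 21 chains had exactly 30 peaks and 29 chains had 29. The clusters of 30 with the highest summed score lay at Tubb2b and Psmg4, Ube2f, and Kat2b, an acetyltransferase gene, and the chains of 29 with the highest lay at Pard3b, Lekr1 and Cflar.

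**Figure D1:**
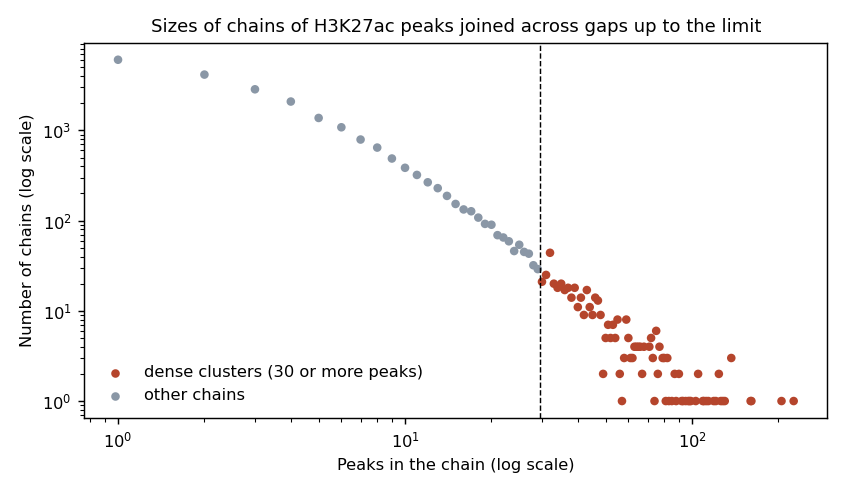
Number of chains (vertical, log scale) by the number of H3K27ac peaks they hold (horizontal, log scale). Points right of the dashed line are the 477 dense clusters, and the 21 chains of exactly 30 peaks and 29 chains of 29 sit on both sides of it with no gap between.

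The peaks in the clusters had the same median strength as others but were placed differently. Median fold enrichment was 5.22 in dense clusters and 5.22 outside them, with 13 fragments over the median summit in each set. Peaks were slightly wider in the clusters, with a median of 180 bp against 159 bp outside, and 2.93% of them were 1.5 kb or wider against 1.44%. Of the peaks in clusters 75.7% had their summit in an intron, against 58.1% outside, and 12.1% lay within 2 kb of a start site, against 24.2%. In chains of 10 to 29 peaks both values were in between, at 63.4% and 19.3%. The median cluster still had 5.00 peaks at start sites, and 72 clusters had none.

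Chromosomes differed. Per 10 Mb, 3.85 dense clusters lay on chromosome 11, 3.17 on chromosome 15, 3.12 on chromosome 1 and 2.94 on chromosome 6. The lowest autosome was chromosome 14 with 1.04, and the next after these 4 was chromosome 2 with 2.25. Chromosomes 1, 6, 11 and 15 held 185 of the 477 clusters (38.8%) and 43.6% of the genes that start in one, against 21.0% of the sequence and 29.6% of the peaks. Chromosome X had 1 cluster, over Msn, which encodes the membrane linker moesin, and chromosome Y had none.

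The same 4 chromosomes also had a higher control background. The background that the caller set against each summit, recovered from its fold and p, had a median of 1.4 fragments on chromosome 6, 1.33 on chromosome 1, 1.32 on chromosome 11 and 1.12 on chromosome 15, and it was 1.05, the lowest value the caller used, on each other autosome and on X. Between 52.6 and 60.4% of the peaks on the other autosomes sat at that lowest value, against 16.1% on chromosome 6, 19.7% on chromosome 1, 25.3% on chromosome 11 and 42.1% on chromosome 15. Fragments over the median summit were 12 or 13 on every autosome. When each chromosome was cut to its strongest peaks, at most 45.0 per Mb, 356 clusters remained, and the 4 chromosomes held 90 of them (25.3%). Chromosomes with fewer peaks per Mb kept all of theirs, and this setting is called equal peak density below. Chromosome 11 then had 1.56 clusters per 10 Mb, chromosome 6 had 1.74, chromosome 15 had 1.83 and chromosome 1 had 1.33, within the range of the other autosomes (0.947 to 1.85). The number of copies of these chromosomes in the tumor was not measured by the list, and its part in the counts was not tested.

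**Figure D2:**
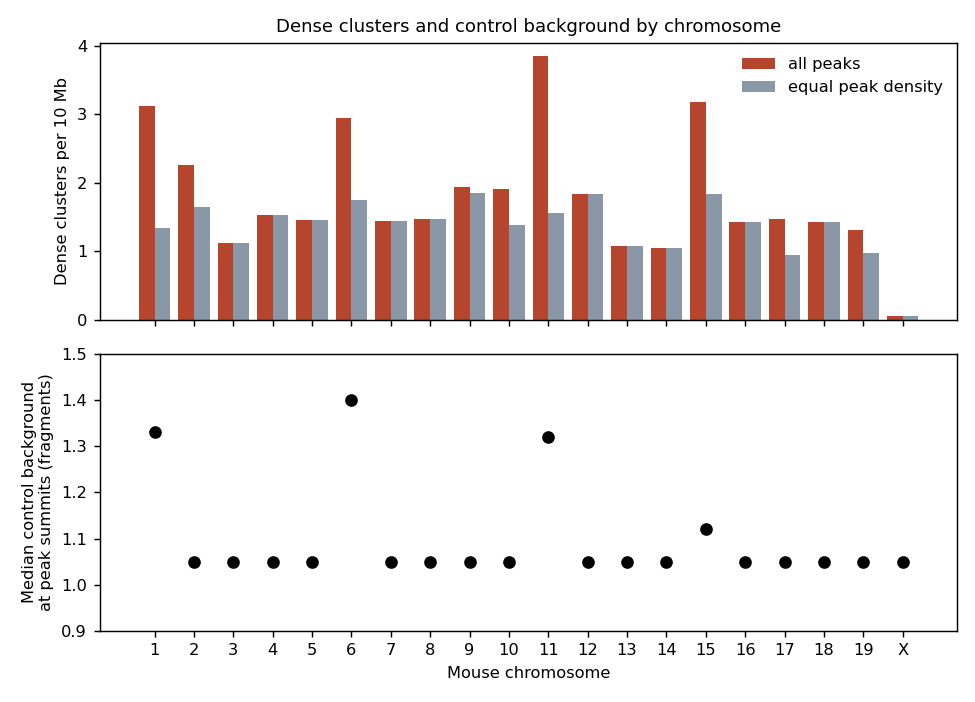
Top, dense clusters per 10 Mb of each chromosome in the whole list (red) and after cutting each chromosome to at most 45.0 peaks per Mb (grey). Bottom, the median control background at peak summits in fragments (axis from 0.9). Chromosomes 1, 6, 11 and 15 stand above the other chromosomes in the red bars and in the background, and not in the grey bars; chromosome Y is left out.

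Within the clusters lay the start sites of 518 of 21000 protein-coding genes (2.47%, Wilson 2.27 to 2.69%), and clusters touched the bodies of 692 (3.30%). Each gene was placed by its most upstream start only. The share of 2.47% is the value against which each group of genes below is set. Beyond the 10 largest clusters, 467 clusters held 506 of the starts. Genes were spread thinly: 235 clusters held 1 start, 68 held 2, 33 held 3 or more and 141 held none. Of those 141 clusters, 118 lay within or over part of a gene whose start was outside, and 23 touched no protein-coding gene. Such a cluster can still hold other start sites or end just short of the most upstream start. The Septin9 cluster had 15 peaks at start sites, and the start of Sh3pxd2a lay 0.276 kb outside its cluster.

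Genes that started in a cluster were longer and richer in CpG at their start than others. Their median length was 32.0 kb, against 16.7 kb for all genes, and a further 174 genes that were touched without their start had a median of 90.3 kb. Of genes under 20 kb 1.66% started in a cluster (Wilson 1.44 to 1.91%), of those between 20 and 100 kb 3.35% (2.96 to 3.79%) and of those over 100 kb 3.76% (3.06 to 4.61%). With 50 or more CpG in the 1 kb around the start the share was 3.88%, and with under 20 CpG it was 0.788%. Classes below differ in both. Median length was 57.0 kb for receptor tyrosine kinases, 46.0 kb for chromatin regulators and 2.97 kb for the ribosome. Their median CpG was 65.0, 86.0 and 69.0, against 46.0 for all genes. Shares by length are given only for actin and adhesion genes and for transcription factors, and none by CpG. The other comparisons with all genes are therefore not matched.

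The clusters of rank 11 to 40 held between 80 and 124 peaks, and 12 of these 30 held the most upstream start of no coding gene. They are given below by the gene that covers the largest part of each, in no order of role. Antxr1, a receptor for collagen and anthrax toxin, covered the largest share, 35.5%, of a cluster of 124 peaks that also held the starts of Gfpt1 and D6Ertd527e. Sorbs2, an adaptor between adhesion sites and actin, covered the whole of a cluster of 121 peaks, and Sh3pxd2a, the scaffold of invadopodia, covered the whole of one of 114. Septin9 (97 peaks), Cd44, the hyaluronan receptor (95 peaks), Capzb, which caps actin filaments (88 peaks), Ddr2, a collagen-binding receptor tyrosine kinase (83 peaks), Bcar3 and Baiap2l1 (82 peaks each) followed.

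Errfi1, the feedback inhibitor of the EGF receptor, started in a cluster of 109 peaks. Rptor, a subunit of the mTORC1 complex, lay over one of 93 peaks, Nek7, a kinase, over 92, Herc3, a ubiquitin ligase gene, over 90, Rin2, an exchange factor for RAB5, over 85, and the adaptor gene Shb and the kinase gene Abl2 over 80 each. Cdon, a surface receptor that promotes muscle differentiation and binds hedgehog ligands, started in a cluster of 87 peaks.

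Creb5 (103 peaks), Vgll4, a cofactor of TEAD factors (99 peaks), Tcf4, a basic helix-loop-helix factor (81 peaks), and Rbms1, an RNA-binding protein gene (87 peaks), covered most of their clusters, but of the 4 only Vgll4 had its most upstream start inside. The remaining genes of these ranks were 1700025G04Rik (119 peaks), Ccbe1 (112), Tpr (110), Fndc3b (105), Abhd2 (105) and Tmem163 (98). Ranks 12, 28 and 35 touched no coding gene.

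**Figure D3:**
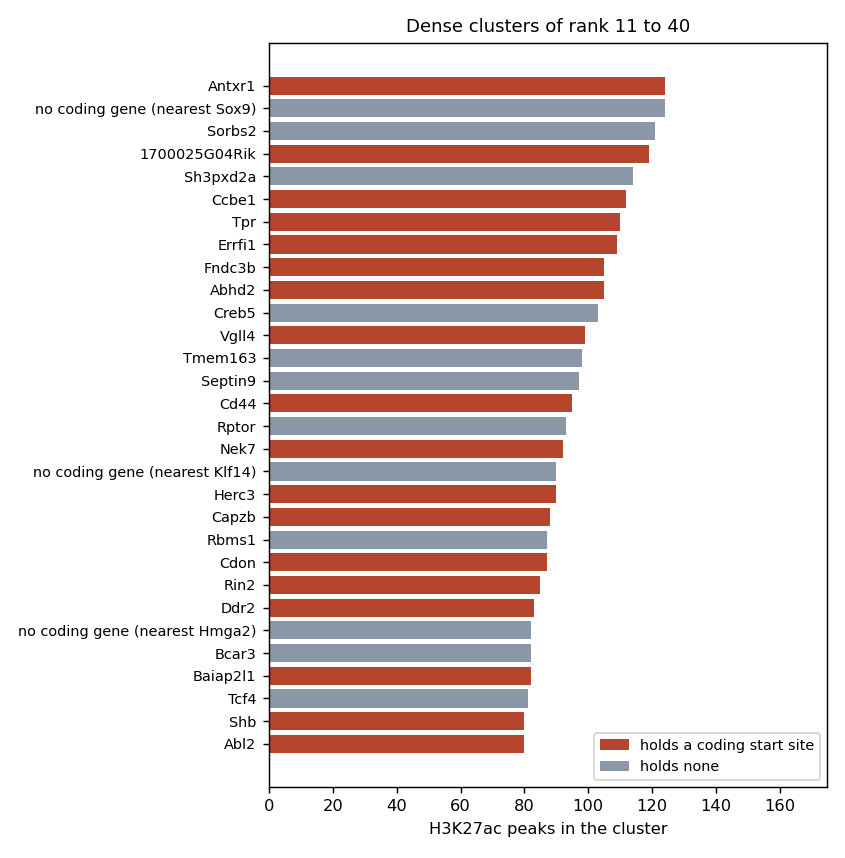
H3K27ac peaks in each dense cluster of rank 11 to 40, named by the protein-coding gene whose body covers most of it. Red bars hold the most upstream start site of a coding gene and the 12 grey bars hold none. The counts run from 124 peaks to 80.

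By function, the class with the highest share of starts in a cluster was actin cytoskeleton and adhesion, with 25 of 237 genes (10.5%, Wilson 7.25 to 15.1%) in 24 clusters. The class was also long, with a median of 77.7 kb, but its share was 8.82% in genes under 20 kb, 13.5% between 20 and 100 kb and 8.08% over 100 kb, each above the share of all genes of that length. Fndc3b (105 peaks), Synpo, which bundles actin (74 peaks), Myh9, a heavy chain of nonmuscle myosin (73 peaks), and Actn4, an actinin (65 peaks), lay in the largest clusters, and Plec, Pxn, Itga3, Itgb4 and Cald1 were further members. Without chromosomes 1, 6, 11 and 15 the share was 8.28%, against 1.78% of all genes there, and at equal peak density it was 7.59% against 1.70%. No test was run on any class, since classes were chosen with earlier results known and genes are not replicates.

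Growth factor signaling followed. Of RAS and MAPK genes 10 of 135 started in a cluster (7.41%, 4.07 to 13.1%), and several of them are brakes of the pathway: Lrig1 (137 peaks), which lowers EGF receptor levels, Errfi1 (109), Spred1 (40), and the phosphatase genes Dusp10 (39) and Dusp6 (30). The kinase genes Map4k4 (73) and Map4k1 (65) were among them too. Among receptor tyrosine kinases, 2 of 59 started in a cluster (3.39%, 0.935 to 11.5%), Ddr2 (83) and Egfr (79), which lie on chromosomes 1 and 11. Without chromosomes 1, 6, 11 and 15 the count was 0 of 47, and at equal peak density the share was 1.69%, against 1.70% of all genes. Of PI3K, AKT and IGF genes 6 of 67 did so (8.96%, 4.17 to 18.2%), including Phlpp1, a phosphatase of AKT (226), Irs1, the insulin receptor substrate (66), Igf2bp2 (45) and Plekha6 (41).

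Of TGF-beta and BMP genes 7 of 69 started in a cluster (10.1%, 5.00 to 19.5%), and none of the 7 was on chromosomes 1, 6, 11 or 15. Where peaks 200 bp or less apart were counted as 1, none of the 69 remained, against 0.814% of all genes, and at 500 bp none remained, against 0.267%. They comprised ligands, Bmp7 (48 peaks) and Bmp5 (40), the BMP antagonist Grem1 (39), the co-receptor Eng (32), and the inhibitors Ski (63), Smad7 (32) and Tgif1 (31). Of WNT and Hippo genes 4 of 106 did so (3.77%), namely Vgll4 (99), Tead4 (59), Taok3 (41) and Lrp6 (39). The 1 of 45 Notch and hedgehog genes was Cdon.

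Of extracellular matrix genes 10 of 193 started in a cluster (5.18%, 2.84 to 9.27%), led by Sparc (75 peaks), Hspg2, which encodes perlecan (62), Adamtsl4 (54) and Hs6st1 (47). Of chromatin regulators 13 of 214 did so (6.07%, 3.58 to 10.1%), led by Setd5 (77), Nsd3, a histone methyltransferase (59), Smarcc1, a subunit of the SWI/SNF remodeler (52), and Kmt2e (47). Axon guidance genes numbered 5 of 84 (5.95%), with Sema7a (60), Nrp2 (54), Sema4c (39) and Ntn5 (38). RNA-binding regulators numbered 6 of 169 (3.55%), with Mbnl2, a splicing regulator (137), and Rbm47 (59) ahead of Hnrnpa3 (46) and Igf2bp2.

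The ubiquitin system had 15 of 493 genes (3.04%), among them Herc3 (90), Socs3 (65) and Trim8 (59). Solute carriers had 10 of 360 (2.78%), led by Slc25a45 (79), Slco1a5 (75), Slc6a6 (66) and Slc13a2 (45). The cell cycle and replication class, filled by matching gene symbols and not by known function, had 5 of 202 (2.48%): Cdkn2a and Cdkn2b (77), Aurkb (48), Cdc40 and Cdt1 (35 each). The cytosolic ribosome had 4 of 83 (4.82%, 1.89 to 11.7%), among them Rps14 (55), Rps21 (39) and Rpl18 (38). Ion channels had 3 of 280 (1.07%), Itpr3 and Clic4 (50 each) and Piezo1 (35), and C2H2 Zfp genes had 5 of 423 (1.18%), with Zfp462 (47), Zfp281 (45), Zfp148 (43) and Zfp217 (37) in the largest. None of 106 oxidative phosphorylation genes (Wilson upper bound 3.50%) and none of 1516 chemosensory receptors (upper bound 0.253%) started in a cluster. The classes and factor families held 166 of the 518 genes, and 352 belonged to none.

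**Figure D4:**
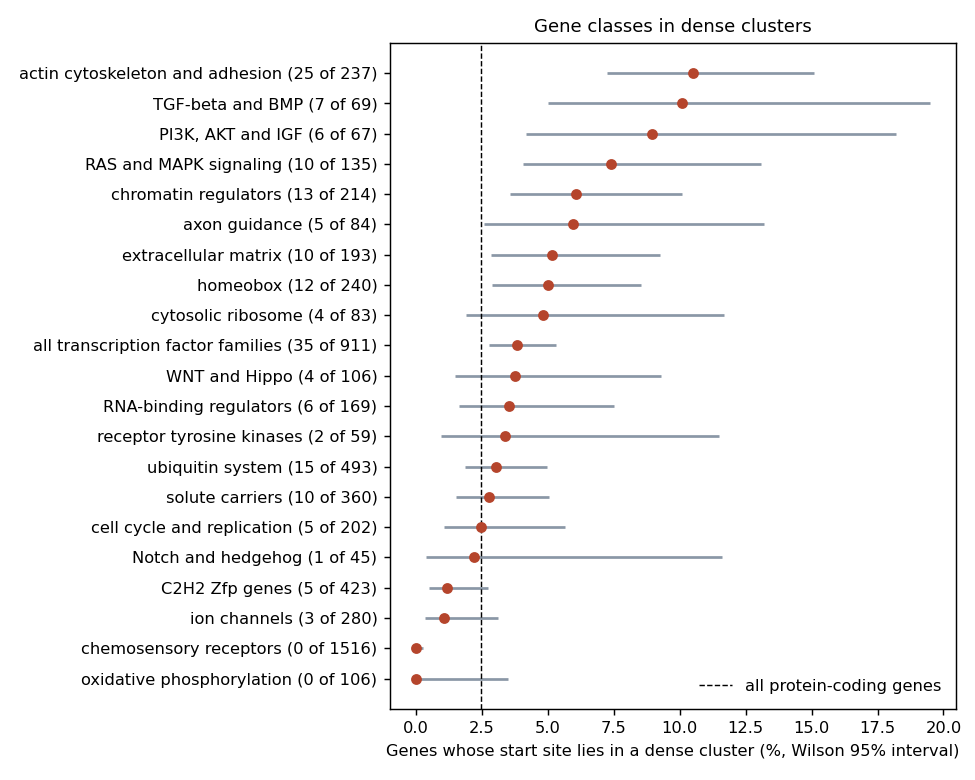
Share of the genes of each class described whose start site lies in a dense cluster, in percent, with Wilson 95% intervals and counts beside each name. The dashed line is the 2.47% of all protein-coding genes; actin cytoskeleton and adhesion, at 10.5%, is at the top, and oxidative phosphorylation and chemosensory receptors are at 0.

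Transcription factors were in the clusters in small numbers. Of 911 genes in 22 families 35 started in one (3.84%, Wilson 2.78 to 5.30%), in 29 clusters, and 32 of them lay beyond the 10 largest. By length the shares were 2.53% under 20 kb, 5.54% between 20 and 100 kb and 5.56% over 100 kb, against 1.66%, 3.35% and 3.76% of all genes. The order was not stable: with a gap of 5000 bp 3 factors remained (0.329% against 0.410% of all genes), and with only peaks over 2 kb from a start site 5 remained (0.549% against 0.686%). C2H2 Zfp genes were counted apart from these families, so the factor share leaves them out. Of the C2H2 Zfp genes, 5 of 423 started in a cluster (1.18%).

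Homeobox genes gave the most, with 12 of 240 (5.00%, 2.88 to 8.53%) in 6 clusters. Hoxa3, Hoxa5, Hoxa6, Hoxa7, Hoxa9, Hoxa10 and Hoxa11, which pattern the body axis and limbs, stood in a single cluster of 39 peaks and 55.8 kb on chromosome 6, so these 7 are not separate observations. Among the others were Cux1 (160 peaks), Meis1, a partner of HOX proteins (126), Prrx1 (41) and Tgif1 (31). Other DNA-binding factors gave 5 of 81, with Hmga2 (161), Aff1 (61) and Rfx8 (42) ahead of Arid5b and Mbd2 (32 each). Basic leucine zipper factors gave 3 of 54: Creb3l2 (71), Nfe2l2, which directs the response to oxidative stress (46), and Dbp (38). Nuclear receptors gave 3 of 47: Rara (37) and Rarg (35), both receptors for retinoic acid, and Ppard (33). TEAD and VGLL gave 2 of 8, with Tead1 touched as well.

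Further families gave 1 or 2 genes each: Stat6 (44) and Irf1 (32), Ski (63) and Smad7 (32), Zbtb38 (71) and Vezf1 (67), Elk3 (72), Klf6 (32), Nfic (31) and Foxn1 (45). No member started in a cluster among 110 basic helix-loop-helix, 31 SOX and TCF/LEF, 17 T-box, 17 NF-kB and NFAT, 15 E2F and MYB, 14 TFAP2, grainyhead and p53, 11 GATA and TRPS, 9 PAX, 8 MEF2 and SRF and 7 RUNX genes. Clusters did touch the bodies of Tcf4, Trps1, Runx1 and Mrtfa in these families, and those of Ets1, Etv6, Elf1 and Creb5 elsewhere.

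Of 28 myogenic genes 2 started in a cluster (7.14%, Wilson 1.98 to 22.6%), Cdon among them, against 2.47% of all genes, which lies within that interval. No chain of peaks held the start of Myod1, Myog, Myf5, Pax7 or Des. The start of Myf6, which drives Cre in this model, lay in a chain of 14 peaks, and that of Pax3, which carries the fusion, in a chain of 24. Of 40 genes described in fusion-positive rhabdomyosarcoma, 2 started in a cluster (5.00%, 1.38 to 16.5%), Hmga2 among them, and clusters touched Bcl2l1 and Jarid2. Met lay in a chain of 23 peaks and Myc in one of 7. Most genes of this list, Mycn, Fgfr4, Alk, Igf2 and Cxcr4 among them, had their start in no chain.

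Marker lists of other cells were too short to place above or below the share of all genes. Eng was the only 1 of 24 endothelial genes (4.17%, Wilson 0.739 to 20.2%), with Plvap in a chain of 27 peaks and Cd34 in one of 25. No chain held the start of Pecam1, Cdh5, Kdr or Tek. Prrx1 was the only 1 of 18 fibroblast genes (5.56%, 0.988 to 25.8%), with Col3a1 in a chain of 28. The starts of Col1a1, Col1a2, Dcn and Pdgfra lay in no chain. None of 24 immune, 20 neuronal or 13 matched hepatocyte genes started in a cluster, with upper bounds of 13.8%, 16.1% and 22.8%. Among the immune genes, Fcer1g started in a chain of 26 peaks, Cd68 in one of 20 and Cd14 in one of 9. The starts of the other immune genes listed, Ptprc, Csf1r, Adgre1 and Itgam among them, lay in no chain. A gene outside a dense cluster can still be active, and expression was not measured in these values.

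The loci altered in this model gave 2 clusters. Cdkn2a, whose products INK4a and ARF arrest the cell cycle, and Cdkn2b beside it shared a cluster of 77 peaks over 79.1 kb on chromosome 4 from 89232743 to 89311874. No peak overlapped the exons at 89276645 to 89276985 and 89274473 to 89274774, which both transcripts of Cdkn2a share. The nearest peaks were 744 bp and 1080 bp away, and the stretch without a peak, 4.33 kb long, ranked 3 by width among the 76 gaps in the cluster, whose median gap was 0.283 kb. The exon at 89281986 to 89282192, which only 1 of the transcripts uses, had 1 peak over it, with a fold enrichment of 4.46. The exon at 89294334 to 89294619, used only by the other transcript and outside the gap, had no peak over it, and the nearest was 318 bp away. The labels name a floxed allele without its exons, and whether recombination left this gap was not tested. The other cluster held 77 peaks on chromosome 6 from 113072331 to 113159072, with Setd5 and the noncoding gene Gt(ROSA)26Sor, the site of the reporter allele.

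Peaks were placed unevenly around the start sites. In the Egfr cluster 78 of 79 summits lay downstream of the start, up to 126 kb into the gene. In the Meis1 cluster 121 of 126 did, up to 155 kb, which is past the end of the gene. At Errfi1 86 of 109 lay upstream, as far as 106 kb, beyond the 15.1 kb of the gene itself. At Cdon 47 of 87 were upstream and 40 downstream, and at Cdkn2a 60 of 77 were downstream. The Cdkn2a gene covered 25.5% of its cluster, and the downstream summits reached 61.8 kb, past the end of the gene.

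**Figure D5:**
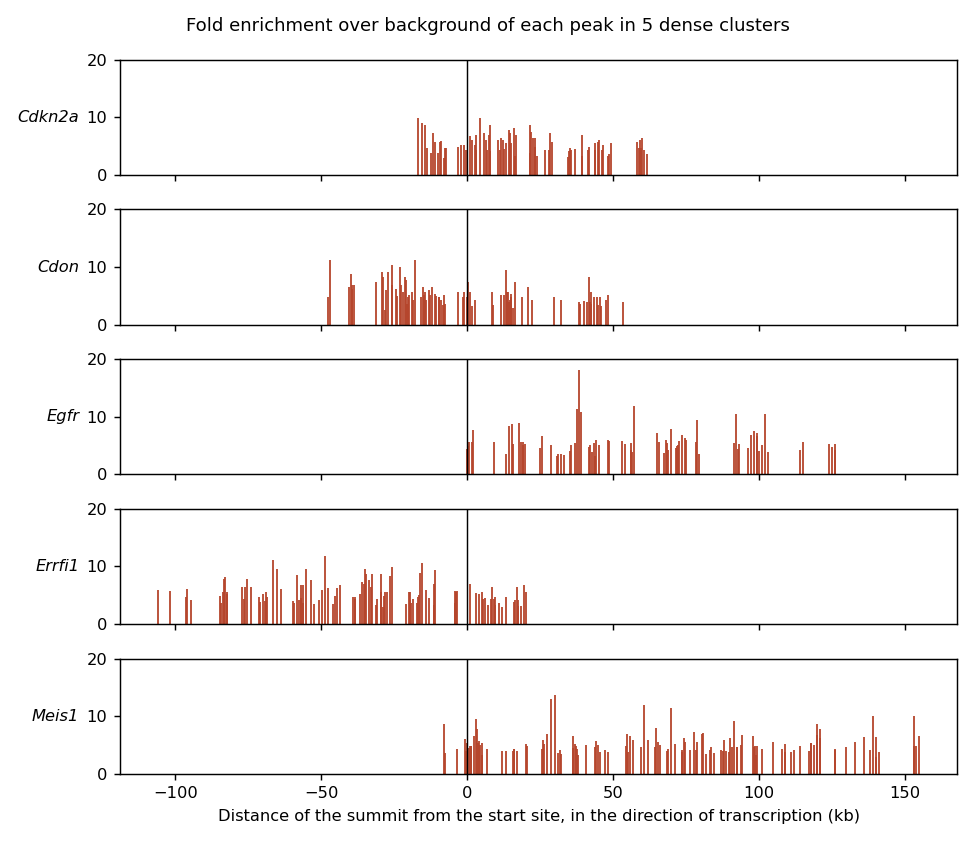
Each line is 1 peak of a dense cluster, at the distance of its summit from the most upstream start site in kb (negative is upstream), and its height is the fold enrichment over background. Peaks at Egfr and Meis1 lie almost wholly downstream of the start, and those at Errfi1 mostly upstream.

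Of the 23 clusters that touched no coding gene, the largest held 124 peaks over 184 kb on chromosome 11 from 113032291 to 113216154. The nearest coding start, 250 kb away, was that of Sox9, a regulator of cartilage and other lineages. The next, with 90 peaks on chromosome 6 from 31038279 to 31148998, held Mir29a and Mir29b-1, members of a family that targets collagen transcripts. Another, with 82 peaks on chromosome 10 from 120603100 to 120722564, lay 127 kb from Hmga2, which had a cluster of its own. A cluster of 72 peaks on chromosome 8 was 56.9 kb from Sh2d4a, and one of 68 peaks on chromosome 15 held Mirlet7c-2 and Mirlet7b.

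The clusters held 50 miRNA genes of 1228 (4.07%) and the starts of 345 lncRNA genes of 12637 (2.73%). Besides the let-7 and miR-29 genes, Mir125b-1 lay in a cluster of 53 peaks with no coding gene, Mir21a in one of 72 peaks over Vmp1, and Mir199a-2 and Mir214 in one of 32 peaks within Dnm3. Mir99b, Mirlet7e and Mir125a, which share a transcript, stood in a cluster of 38 peaks with Has1, and Mir196b stood among the Hoxa genes. RefSeq gave a mature sequence for 46 of the 50. A miRNA gene inside a coding gene cannot be told apart from its host in these values.

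Motif content at the summits of clusters differed little from that of windows 1.5 kb away. Peaks inside a cluster lay a median of 0.273 kb apart, so such a window can fall in the same cluster or under another peak. The comparison therefore cannot set clusters against sequence without the mark. In the 201 bp around 20727 distal summits of dense clusters, 7.16% held the AP-1 letters, against 6.81% of windows 1.5 kb away. The share was 8.19% in chains of 10 to 29 peaks, 10.0% in chains of 2 to 9 and 12.3% at single peaks, so it fell as chains grew. The E-box CACCTG went the other way, with 13.7%, 13.1%, 10.8% and 8.84% in the same order, and 14.3% beside the cluster peaks. GC content moved with it, from 45.8% in dense clusters to 43.5% at single peaks. RUNX letters (16.9%, 16.5%, 16.9% and 17.1%), TEAD letters (11.3%, 11.4%, 11.8% and 12.5%) and the E-box CAGCTG (10.8%, 10.3%, 9.99% and 10.8%) varied less. ETS letters were in 2.43% of distal windows in dense clusters and 4.05% of promoter windows, and the SP1 box in 3.04% and 8.03%. Forkhead letters were in 3.26%, GATA in 11% and MEF2 in 3.07% of the distal windows, against 2.75%, 11% and 3.15% beside them. These letters are matches in a window and not bound sites.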

How the data were processed

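H3K27ac CUT&RUN fragments of MCP tumor cells were mapped by the authors to mm10. The methods name bowtie and MACS1.4, and the labels name BWA, SAMtools and MACS2. The deposited list is a MACS2 narrowPeak table called against IgG, 1 row per peak. Its deposited columns are a score, a fold enrichment (a ratio to the local background), −log10 p-values and q-values, and a summit offset, a position in bp. Library totals were not given, so depth was judged from fragments at the summit. These were recovered from fold and p by the caller's formulas: a whole number solved 122374 of the peaks within 0.0100 on the −log10 scale, 91.2% by 1 number only. They are inferences and not read counts.

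Peaks were joined at gaps up to 12500 bp and chains of 30 or more were kept. The members, the gene lists and the classes were chosen with earlier results of these data known. Genes were RefSeq GRCm38.p6 protein-coding genes with a curated transcript (21000), placed by their most upstream start. Files and reference had the same chromosome lengths. Named genes were those covering most of the clusters of rank 11 to 40, up to 3 factors per family and 4 genes per class with the most peaks, list genes that start in a cluster, the 5 largest clusters without a coding gene, and the top 3 by score on each side of the limit. Members named past those limits were chosen after their values were seen. A few genes and 1 class that these rules pick are not reported here. No test was run, with 1 list and no replicates. The joining and recovery steps were tested on simulated data. Python 3.11 scripts used pandas and scipy, and intervals are Wilson 95%.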

Additional observations from a re-analysis of the deposited data

How the results depend on the processing

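No paired analysis was possible because the list comes from 1 library and no result comes from a test. Counts of clusters and of what they hold follow the limits that define them. From 477 clusters the number became 170 with a gap of 5000 bp, 1009 from 20 peaks, 262 from 40 peaks, 78 with only peaks of −log10 q 5 or more, 292 without chromosomes 1, 6, 11 and 15, and 153 and 47 where peaks 200 and 500 bp or less apart were counted as 1, the last 2 chosen after seeing the data. Peaks inside went from 23592 to 7609 (gap 5000 bp), 37123 (gap 20000 bp), 36150 (20 peaks), 3111 (q), 13961 (4 chromosomes out), and 6850 and 1897 (peaks merged). Genes starting inside went from 518 to 86 (gap 5000 bp), 1065 (gap 20000 bp), 989 (20 peaks), 275 (40 peaks), 64 (q), 144 (only peaks over 2 kb from a start site), 292 (4 chromosomes out), 265 (whole gene inside), and 171 and 56 (peaks merged). Transcription factor genes went from 35 to 3 (gap 5000 bp), 61 (gap 20000 bp), 16 (40 peaks), 3 (q), 5 (over 2 kb), 23 (equal peak density), 17 (4 chromosomes out), 22 (whole gene inside), and 10 and 5 (peaks merged). The other 14 of 48 counts stayed within 1.5 times. The share of factor genes stayed above that of all genes in 11 of 13 alternatives, and the shares of the actin, RAS and MAPK, PI3K, chromatin and matrix classes in 13 of 13. Some of these rest on 1 gene. Where peaks 500 bp or less apart were counted as 1, the actin class had 1 of 237 genes (0.422% against 0.267%). The PI3K class then had 1 of 67, chromatin 1 of 214, matrix 1 of 193 and RAS and MAPK 3 of 135. All alternatives draw on the same list and overlap, so they are not separate observations. The C2H2 Zfp genes, counted apart from the factor families, were above in 0 of 13. The TGF-beta class was above in 11, receptor tyrosine kinases and axon guidance in 10 each, WNT and Hippo in 9 and the ribosome in 7, so their order against all genes turned under the others. In the running numbering of the peaks 584 numbers have no row here, 29 of them inside 13 clusters, and 457 clusters held or adjoined none. Depth limits the list, since the median summit rests on 13 fragments.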

Other observations

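Some clusters stood close together. With clusters up to 200 kb apart taken as neighbours, 103 of the 477 (21.6%) had a neighbour, in 49 groups, of which 5 held 3 clusters. These 5 lay over Gfpt1 and Antxr1 (208 peaks over 309 kb), within Dst, which links the cytoskeleton to adhesion sites (166 peaks over 336 kb), over Mtap, Cdkn2a and Cdkn2b (158 peaks over 352 kb), around Nmt1 and Map3k14 (125 peaks over 418 kb), and from Cdc42bpb to Klc1 (120 peaks over 447 kb). Hmga2 and the stretch beside it formed a pair with 243 peaks.

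The cluster with the most coding starts, 13, was a run of replication-dependent histone genes on chromosome 13 from 23532088 to 23586865, with 32 peaks. Copies of these genes are alike in sequence, and reads that fit several copies cannot be told apart. A cluster of 38 peaks on chromosome 7 held 8 starts, Dbp and Rpl18 among them, and one of 43 peaks on chromosome 19 held 7, from B3gat3 to Ahnak.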
